A study of Mus musculus with 12 samples.

Results

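The 10 genes of epidermal activation were followed in skin of C3H/HeJ mice with alopecia areata (AA) that received topical baricitinib or vehicle. The genes were chosen by name, with earlier results of these data known. They are Sprr1a, Sprr1b, Sprr2d and Sprr2h, S100a8 and S100a9, and the keratins Krt6a, Krt6b, Krt16 and Krt17. Every probe set annotated to one of these 10 symbols alone was taken, which gave 13 of 45037 probe sets and 10 of 18193 genes. 1 further probe set carries Krt17 together with another symbol and was left out.

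Gene expression was measured on 12 Affymetrix mouse genome arrays, read as probe sets, of skin biopsies from 6 mice. All mice were C3H/HeJ animals that carried a graft of alopecic skin and had near complete alopecia before treatment began, so the vehicle group was diseased skin and healthy skin was not among the samples analysed here. 3 mice received baricitinib, an inhibitor of the Janus kinases JAK1 and JAK2, and 3 mice received vehicle. Each mouse was biopsied at week 0, before treatment, and again at week 12, which gave 4 groups of 3 arrays. The values are log2 expression, so a difference of 1 is a 2-fold change, and a probe set was called when its limma adjusted p, taken over all 45037 probe sets, was under 0.05.

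Small proline-rich (SPRR) proteins are made by differentiating keratinocytes and are crosslinked by transglutaminases into the cornified envelope, the protein shell of the outermost skin cells. S100A8 and S100A9 are calcium-binding proteins that pair to form calprotectin, which neutrophils carry in large amounts and which keratinocytes make in inflamed skin. Keratins 6, 16 and 17 are kept mainly to the hair follicle, the nail and other appendages in resting skin, and they appear in the epidermis between follicles after wounding, in psoriasis and in other states in which keratinocytes are stressed.

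The genes lie in 3 clusters. The SPRR and S100 genes are on chromosome 3, where the genes of epidermal differentiation are gathered. S100a8 and S100a9 are neighbours with 0 coding genes between them in the RefSeq annotation. Krt6a and Krt6b are neighbours on chromosome 15 among the type II keratins, and Krt16 and Krt17 are neighbours on chromosome 11 among the type I keratins. RefSeq promoter sequences of mouse build GRCm38.p6 were matched for 6 of the 10 members. The 4 SPRR promoters are shown because the called differences lie in this family. Each is the 250 bases before the gene's start, 5' to 3' on the gene's own strand. Capitals mark the AP-1 motif TGANTCA, the octamer ATTTGCAT and the TATA motif TATAAA. The Sprr1a promoter is chr3:92485882-92486131 (minus strand), the Sprr1b promoter is chr3:92438780-92439029 (minus strand), the Sprr2d promoter is chr3:92338890-92339139 (plus strand) and the Sprr2h promoter is chr3:92385435-92385684 (plus strand).
Sprr1a: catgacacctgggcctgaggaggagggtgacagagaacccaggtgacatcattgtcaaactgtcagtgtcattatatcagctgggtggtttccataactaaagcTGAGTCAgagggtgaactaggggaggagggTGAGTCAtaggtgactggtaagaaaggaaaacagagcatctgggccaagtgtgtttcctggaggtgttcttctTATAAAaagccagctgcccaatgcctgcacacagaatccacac
Sprr1b: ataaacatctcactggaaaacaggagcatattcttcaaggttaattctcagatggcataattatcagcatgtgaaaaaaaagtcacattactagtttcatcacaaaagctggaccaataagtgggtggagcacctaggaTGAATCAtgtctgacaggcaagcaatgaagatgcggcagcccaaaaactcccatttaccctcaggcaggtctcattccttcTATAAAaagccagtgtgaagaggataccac
Sprr2d: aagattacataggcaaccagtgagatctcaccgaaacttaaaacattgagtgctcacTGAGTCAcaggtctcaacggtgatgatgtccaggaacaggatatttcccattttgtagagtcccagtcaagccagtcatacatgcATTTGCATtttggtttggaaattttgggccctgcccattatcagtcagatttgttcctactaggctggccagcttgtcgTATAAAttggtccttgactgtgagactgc
Sprr2h: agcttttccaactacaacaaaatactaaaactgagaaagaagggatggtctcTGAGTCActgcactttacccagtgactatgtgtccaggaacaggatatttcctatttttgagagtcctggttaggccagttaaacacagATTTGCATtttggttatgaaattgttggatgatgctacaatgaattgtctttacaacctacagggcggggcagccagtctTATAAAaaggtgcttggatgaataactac

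The AP-1 motif was present in all 4 SPRR windows and in 6.75% of 32851 promoter windows of the same length. Sprr1a holds it at 2 places, 146 to 140 and 116 to 110 bases before the start. Sprr1b has the motif at 111 to 105 bases, Sprr2d at 193 to 187 and Sprr2h at 198 to 192. The octamer was found in 1.6% of all windows, and in the Sprr2d and Sprr2h windows it lies at 108 to 101 and 109 to 102 bases before the start. An alignment of the full Sprr2d and Sprr2h windows, with gaps allowed, paired 163 identical bases (65.2% of 250). The longest run shared by these promoters is the 22 bases tgtccaggaacaggatatttcc. TATAAA, present in 12.4% of windows, lies 43 to 38 bases before the start in Sprr1a, 30 to 25 in Sprr1b and 29 to 24 in both Sprr2 genes. AP-1, the octamer, TATAAA and the motif TTCNNNGAA were searched in both strands, and the TATAAA matches given here lie on the gene's strand. TTCNNNGAA is read by STAT factors and was present in 7.02% of windows. TTCNNNGAA was in none of the 6 member windows, and TGANTCA was in neither S100 window. These matches describe letters in the windows and are not measured binding sites.

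2 arrays correlated less well with the others. The median correlation with the other arrays was 0.945 for baricitinib week 0 replicate 2 and 0.951 for baricitinib week 12 replicate 1, against 0.955 to 0.979 for the other 10. The study's methods state that arrays of both baricitinib times, and a control array at baseline whose experiment is not named, were removed for quality before its own analysis. Which these were is not given in the sources used here. RNA quality also differed. The 3' minus 5' difference of the Gapdh control probe sets was 1.00 and 1.10 in baricitinib week 12 replicates 2 and 3 and 0.84 in vehicle week 0 replicate 1, against 2.17 to 4.29 elsewhere. All 5 skin epithelium markers (Krt5, Krt14, Krt1, Krt10 and Trp63) were above the array median on every array, with a summed level of 14.71 to 15.07 on the log2 scale.

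The mean expression of each of the 4 SPRR genes was lowest in baricitinib-treated skin at week 12. Sprr2h fell 12.4-fold between week 0 and week 12 with baricitinib and was 12.2-fold lower than with vehicle at week 12. Sprr2d was lower than with vehicle at week 12 by a log2 difference of -4.14, or -3.08 without the array on which it read lowest. The median log2 difference of the 10 genes, one main probe set each, was -2.20 between the baricitinib weeks and -1.81 between treatments at week 12, with 9 of 10 below 0 in each, where the median over all probe sets was 0.00 and 0.01. Between the vehicle weeks it was -0.03. Over all 13 member probe sets the medians were -1.48 between the baricitinib weeks, -1.45 between treatments at week 12 and -0.25 between the vehicle weeks. Krt17 was the member with a positive difference in both baricitinib comparisons.

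**Figure D1:**
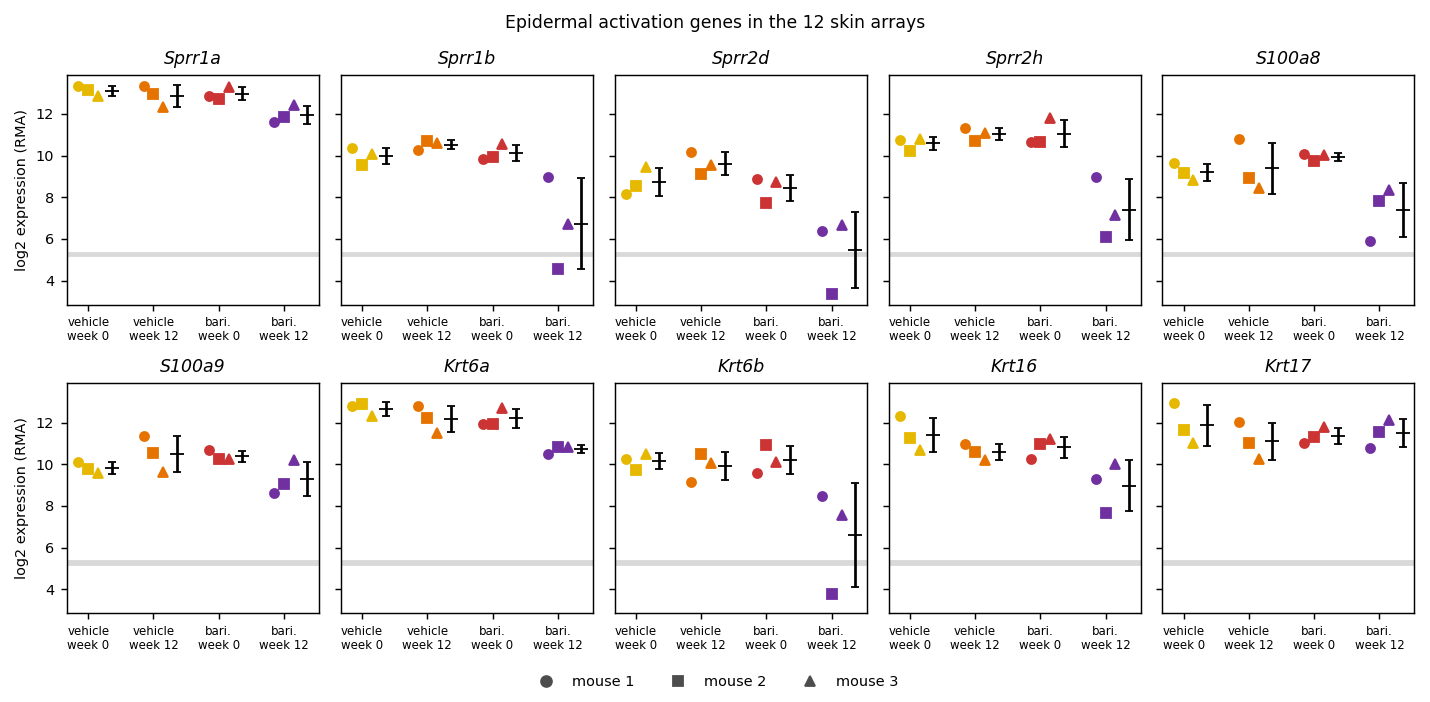
Log2 expression (RMA) of the main probe set of each of the 10 genes on the 12 arrays, by group, with a symbol for each mouse, the mean and SD beside each group (n = 3) and a grey band for the range of the array medians, 5.16 to 5.35. The baricitinib week 12 arrays lie below the 9 others for Sprr1b, Sprr2d, Sprr2h, S100a8, Krt6a, Krt6b and Krt16, while the Krt17 groups overlap.

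Between week 0 and week 12 of baricitinib, 1 of the 13 member probe sets was called lower, against 0.875% of all probe sets, and 0 were called higher, against 0.362%. At an unadjusted p under 0.05 the limma fit held 9 of the 13, against 12.3% of all. In 9 probe sets of 9 genes the 3 week 12 arrays all lay below the 3 week 0 arrays, against 7.91% of all probe sets, and in 0 above, against 7.97%. In 7 probe sets of 7 genes they lay below the 9 other arrays of the series, against 3.07% of all, and in 0 above, against 2.16%. Between treatments at week 12, 2 member probe sets were called lower, against 0.429% of all, and 0 higher, against 0.151%. Here 7 probe sets of 7 genes lay below vehicle without overlap, against 9.69% of all, and 0 above, against 7.44%. The 2 comparisons share the baricitinib week 12 arrays. In fits of only the 2 groups compared, 0 member probe sets were called in either comparison, and the share of all probe sets called there was not counted. 3 arrays a group limited the precision, and the spread of several members was wide, with a residual SD at the 97.6 percentile of all probe sets for Sprr1b and the 98.9 percentile for Krt6b.

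**Figure D2:**
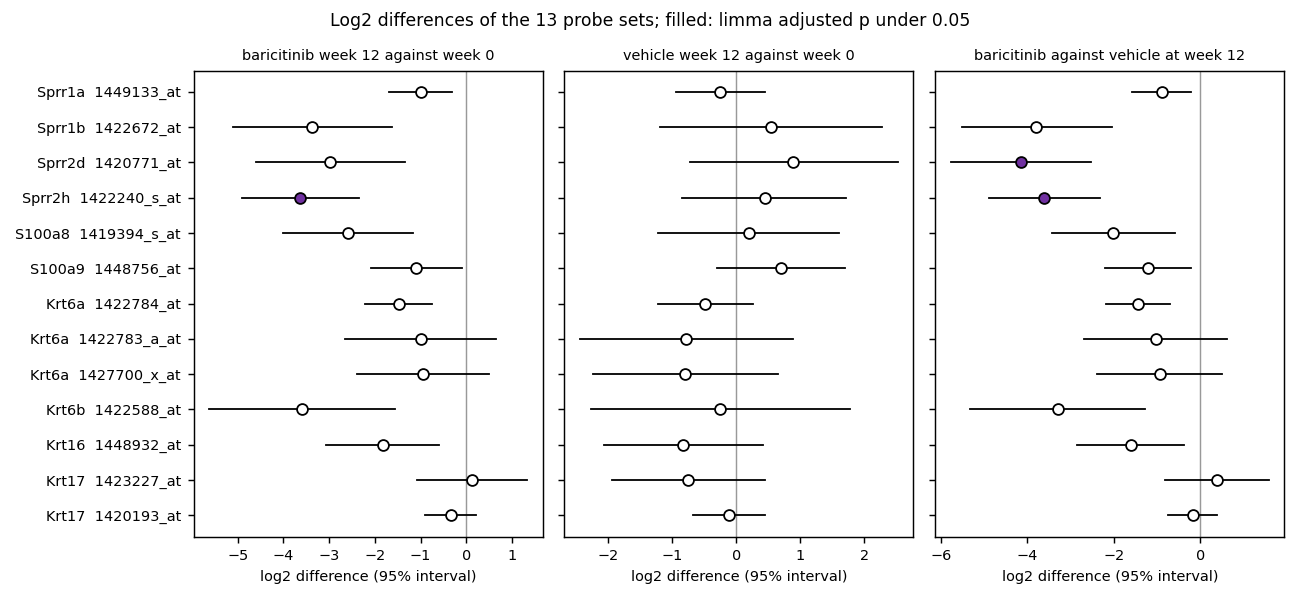
Log2 difference and 95% interval of the 13 probe sets in 3 comparisons, from the limma fit of all 12 arrays. Filled points passed an adjusted p of 0.05: Sprr2h in both baricitinib comparisons and Sprr2d against vehicle at week 12. No vehicle point is filled.

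Among the SPRR members, Sprr2h had the smallest adjusted p in both baricitinib comparisons. The probe set 1422240_s_at read 10.66, 10.67 and 11.79 at baricitinib week 0 and 8.97, 6.10 and 7.17 at baricitinib week 12. With vehicle it read 10.75, 10.23 and 10.80 at week 0 and 11.30, 10.71 and 11.07 at week 12. The 3 baricitinib week 12 arrays were below the 9 other arrays, and replicate 2 was the lowest. The log2 difference between the baricitinib weeks was -3.63 (SE 0.59, limma adjusted p = 0.0163), and at week 12 against vehicle it was -3.61 (SE 0.59, adjusted p = 0.0231). Without baricitinib week 12 replicate 2 these were -2.97 (adjusted p = 0.0527) and -2.96 (adjusted p = 0.066), and without replicate 3 of that group -3.51 (adjusted p = 0.0694) and -3.49 (adjusted p = 0.0936). The call between the baricitinib weeks held in 9 of the 12 fits that left out 1 array and was also lost without baricitinib week 0 replicate 3. The suffix of this probe set marks probes shared by several transcripts, so near-identical Sprr2 copies cannot be told apart by it.

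Sprr2d, the other Sprr2 member, had 8.87, 7.72 and 8.75 at baricitinib week 0 and 6.4, 3.35 and 6.67 at week 12. The vehicle arrays had 8.15, 8.56 and 9.45 at week 0 and 10.18, 9.12 and 9.53 at week 12. The baricitinib week 12 arrays again lay below the 9 others. The value 3.35 is under the median of its array, so the size of the difference on that array is not exact. Against vehicle at week 12 the log2 difference was -4.14 (SE 0.74, limma adjusted p = 0.0362), and between the baricitinib weeks it was -2.98 (SE 0.74, adjusted p = 0.0846), which did not pass. Without baricitinib week 12 replicate 2 they were -3.08 (adjusted p = 0.0374) and -1.92 (adjusted p = 0.149). The week 12 call of Sprr2d was lost in 6 of the 12 fits without 1 array, and those of Sprr2d and Sprr2h were both lost without any 1 of the 3 vehicle week 12 arrays.

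Sprr1b showed a difference of like size with a wider spread. Its probe set read 9.84, 9.95 and 10.53 at baricitinib week 0 and 8.95, 4.55 and 6.72 at week 12. The vehicle arrays read 10.34, 9.55 and 10.06 at week 0 and 10.28, 10.70 and 10.60 at week 12. Baricitinib week 12 replicate 1 stood close to the other groups and replicate 2 was under its array median. The mean was 6.74 ± 2.20 (SD, n = 3) at baricitinib week 12 and 10.52 ± 0.22 at vehicle week 12. The log2 difference was -3.37 (SE 0.79, limma adjusted p = 0.0686) between the baricitinib weeks and -3.79 (adjusted p = 0.0638) between treatments at week 12.

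Sprr1a had the smallest difference of the SPRR members. It read 12.86, 12.72 and 13.30 at baricitinib week 0 and 11.62, 11.83 and 12.44 at week 12, so the weeks did not overlap. With vehicle the values were 13.31, 13.16 and 12.85 at week 0 and 13.34, 12.93 and 12.31 at week 12, and the lowest of these lay within the baricitinib week 12 range. The differences were -1.0 (SE 0.31, limma adjusted p = 0.177) and, against vehicle at week 12, -0.89 (SE 0.31, adjusted p = 0.292).

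Of the other SPRR genes of the array, Sprr2k was above the array median on all 12 arrays and Sprr3 under it on all 12. Of 4 measured, Sprr2f, Sprr2i, Sprr2k and Sprr3, 0 were called in either comparison, and 4 of 4 were below 0 in both, with medians of -1.39 and -1.19. Sprr2i had a log2 difference of -2.53 between the baricitinib weeks (limma adjusted p = 0.118) and Sprr2f of -2.17 (adjusted p = 0.446). Sprr3 was at -0.14. With the 2 least correlated arrays left out, 1 of the 4 was called lower in each comparison.

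The calprotectin genes were lower on every baricitinib week 12 array than on the matched week 0 array, but no S100 difference passed the test. S100a8 read 10.09, 9.74 and 10.03 at baricitinib week 0 and 5.90, 7.83 and 8.37 at week 12. With vehicle it read 9.62, 9.14 and 8.81 at week 0 and 10.77, 8.91 and 8.46 at week 12. The baricitinib week 12 arrays were below all others, with vehicle week 12 replicate 3 just above them. The log2 difference was -2.58 (SE 0.65, limma adjusted p = 0.0882) between the baricitinib weeks and -2.01 (SE 0.65, adjusted p = 0.242) against vehicle. The S100a8 probe set also has the suffix of probes shared by several transcripts.

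S100a9 had 10.66, 10.24 and 10.23 at baricitinib week 0 and 8.63, 9.06 and 10.18 at week 12. Vehicle values were 10.12, 9.75 and 9.56 at week 0 and 11.36, 10.52 and 9.62 at week 12. Baricitinib week 12 replicate 3 was 0.05 below its own week 0 value and inside the vehicle range. The difference was -1.09 (SE 0.46, limma adjusted p = 0.348) between the baricitinib weeks and -1.21 (adjusted p = 0.336) between treatments at week 12. S100a8 had the larger change of the pair in each baricitinib mouse, at -4.19, -1.90 and -1.65 against -2.03, -1.18 and -0.05 for S100a9.

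S100a8 and S100a9 were the members whose groups did not overlap before treatment. All 3 baricitinib week 0 arrays were above the 3 vehicle week 0 arrays in both genes, against 2.27% of all probe sets, by 0.76 (SE 0.65) and 0.57 (SE 0.46) on the log2 scale. No member probe set had the reverse order, against 2.73% of all. Neither difference passed the test (limma adjusted p = 1 for both), and 0 of 45037 probe sets were called at week 0, with 508 at an unadjusted p under 0.05.

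Neutrophils are a main source of calprotectin. Of 12 neutrophil markers 10 had a probe set, and 7 of these (Camp, Ngp, Ltf, Mmp8, Elane, Cd177 and Cxcr2) were under the array median on all 12 arrays. The summed level of the 10 was 9.38 to 10.09 at baricitinib week 0, 7.71 to 7.79 at baricitinib week 12, 8.51 to 10.77 at vehicle week 0 and 8.11 to 10.83 at vehicle week 12. The sum was taken over unlogged values, so Lcn2, the highest of the 10 on every array, weighs most in it. Lcn2, which keratinocytes also make, read 6.16, 6.83 and 6.86 at baricitinib week 12 against 7.49 to 10.77 on the other 9 arrays. The summed level of 6 monocyte and macrophage markers, in which Csf1r weighs most, was 11.28 to 12.46 at baricitinib week 12 and 12.29 to 12.78 elsewhere. Their part in the S100 values was not tested, and in whole skin fewer cells of a type and less RNA per cell cannot be told apart.

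None of 7 genes for receptors of S100A8 and S100A9 was called, and their median log2 difference was 0.22 between the baricitinib weeks and -0.04 between treatments. Tlr4, the receptor that calprotectin shares with bacterial endotoxin, differed by -0.36, and Ager, which encodes the receptor RAGE, by -0.24 between the baricitinib weeks. The C3H/HeJ strain is known for a defective Tlr4 protein. Of 12 other S100 genes 0 were called. S100a3, a gene of the hair cuticle, had -3.67 (limma adjusted p = 0.245), and 9 of the 12 were above 0 between the baricitinib weeks.

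The stress keratins divided. Krt6b, Krt16 and the main probe set of Krt6a were lower on all baricitinib week 12 arrays than on the 9 other arrays, while Krt17 overlapped between all groups. None of them was called in either comparison. Keratin 6 isoforms are type II keratins that pair with the type I keratins 16 and 17 to form filaments.

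The main probe set of Krt6a read 11.94, 11.95 and 12.71 at baricitinib week 0 and 10.49, 10.82 and 10.85 at week 12. With vehicle it read 12.80, 12.87 and 12.29 at week 0 and 12.79, 12.20 and 11.51 at week 12. The 3 baricitinib week 12 arrays lay close together and below the rest. The log2 difference was -1.48 (SE 0.34, limma adjusted p = 0.0624) between the baricitinib weeks and -1.45 (SE 0.34, adjusted p = 0.097) between treatments at week 12. The gene's other probe sets, 1422783_a_at and 1427700_x_at, gave -1.0 (adjusted p = 0.677) and -0.94 (adjusted p = 0.649) between the baricitinib weeks, with overlapping groups. The suffix of the latter marks probes that may bind related transcripts, and Krt6a and Krt6b are close copies.

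Krt6b was the member with the widest spread. It read 9.58, 10.90 and 10.13 at baricitinib week 0 and 8.47, 3.80 and 7.55 at week 12. Vehicle values were 10.24, 9.73 and 10.48 at week 0 and 9.17, 10.49 and 10.04 at week 12. Baricitinib week 12 replicate 2 was under its array median and more than 3 log2 units below the other arrays of its group. The difference was -3.60 (SE 0.93, limma adjusted p = 0.0964) between the baricitinib weeks and -3.29 (SE 0.93, adjusted p = 0.171) against vehicle at week 12. Without that array the differences were -2.19 (adjusted p = 0.11) and -1.89 (adjusted p = 0.233).

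Krt16 had 10.24, 10.95 and 11.22 at baricitinib week 0 and 9.30, 7.65 and 9.99 at week 12. The vehicle arrays had 12.31, 11.24 and 10.70 at week 0 and 10.97, 10.59 and 10.20 at week 12. Every baricitinib week 12 value was below the others, replicate 3 by a small margin. The log2 difference was -1.83 (SE 0.57, limma adjusted p = 0.169) and against vehicle at week 12 it was -1.61 (SE 0.57, adjusted p = 0.294).

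Krt17, by contrast, read 11, 11.31 and 11.78 at baricitinib week 0 and 10.79, 11.55 and 12.12 at week 12. With vehicle it read 12.92, 11.65 and 11.01 at week 0 and 12.02, 11.04 and 10.24 at week 12. The highest of the 12 values was that of vehicle week 0 replicate 1 and the lowest that of vehicle week 12 replicate 3. The difference was 0.12 (SE 0.55, 95% interval -1.07 to 1.32, limma adjusted p = 0.96) between the baricitinib weeks and 0.39 (95% interval -0.81 to 1.58, adjusted p = 0.908) at week 12. These intervals do not show that Krt17 stayed the same. The direction turned to -0.60 and -0.30 with the 3' to 5' index of the arrays (the mean of the Gapdh and actin differences) in the model, an alternative chosen after seeing the data. Probe set 1420193_at of Krt17 was under the array median on all 12 arrays, at 3.11 to 4.07, and gave no usable level.

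The arrays of baricitinib week 12 did not share one order. Replicate 2 was the lowest of the 3 for Sprr1b, Sprr2d, Sprr2h, Krt6b and Krt16, and replicate 1 was the lowest for Sprr1a, S100a8, S100a9, Krt6a and Krt17. The family means, taken over members after each was centred on its own mean, were -1.05, -3.58 and -1.79 for SPRR on the log2 scale, -2.22, -1.04 and -0.20 for S100 and -1.0, -2.31 and -0.64 for the keratins. Replicates 2 and 3 are the arrays with the low Gapdh 3' minus 5' differences, and replicate 1, with 3.39, is the one with the low correlation. With the 3' to 5' index in the fit, 4 member probe sets were called lower between the baricitinib weeks (Sprr1a, Sprr2h, S100a8 and Krt6a), and Sprr2h was at -3.32 (limma adjusted p = 0.0193). Without baricitinib week 12 replicate 1 the 4 called were Sprr1b, Sprr2d, Sprr2h and Krt6b. The share of all probe sets called was not counted in these fits, so a gain particular to the members is not shown.

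Each mouse was then compared with itself. With baricitinib, 11 probe sets of 9 genes were lower at week 12 in all 3 mice, against 12.9% of all probe sets. The Sprr2h changes were -1.70, -4.57 and -4.62 on the log2 scale, and those of Krt6a were -1.45, -1.13 and -1.86. Krt6b ran from -1.11 to -7.10. Krt17 changed by -0.21, 0.24 and 0.34.

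With vehicle, 0 member probe sets were called in either direction, as were 0% of all probe sets, and 0 had an unadjusted p under 0.05, against 2.46% of all. No member had 3 vehicle week 12 arrays all below or all above the week 0 arrays, against 3.59% and 4.68% of all. The keratins Krt6a, Krt16 and Krt17 were lower in all 3 vehicle mice with 5 probe sets, against 11.2% of all. Krt16 changed there by -1.34, -0.65 and -0.49 and Krt17 by -0.90, -0.60 and -0.77. Sprr2d, Sprr2h and S100a9 were higher in all 3 vehicle mice, against 14.9% of all, and the Sprr2h changes were 0.55, 0.48 and 0.28.

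**Figure D3:**
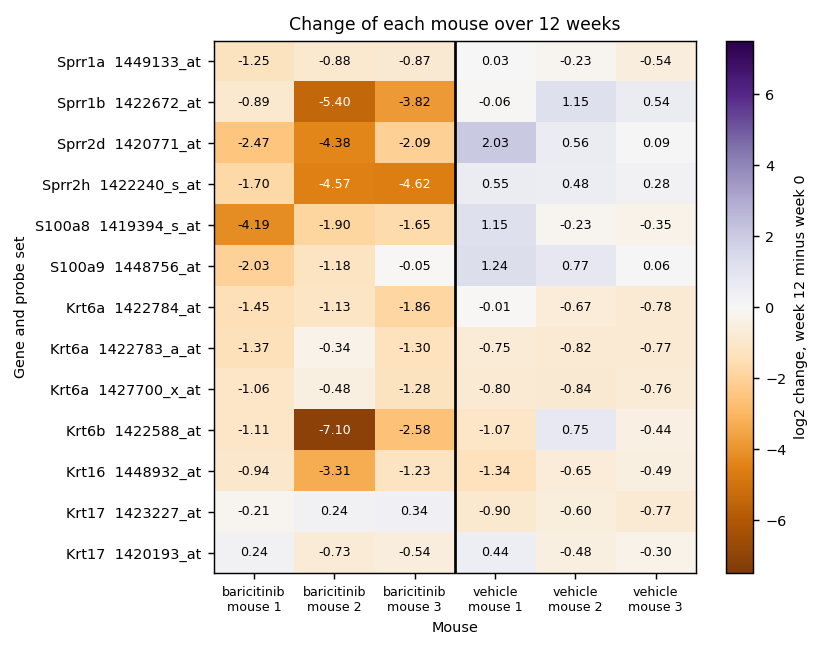
Log2 change from week 0 to week 12 in each of the 6 mice for the 13 probe sets, brown for lower and purple for higher at week 12. The baricitinib columns are negative for every probe set of Sprr, S100, Krt6 and Krt16 genes, and the vehicle columns hold both signs.

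The change with baricitinib minus the change with vehicle was tested as an interaction. 0 of 13 member probe sets passed, as did 0% of all probe sets, and 6 of the 13 had an unadjusted p under 0.05 in limma, against 6.27% of all. The largest was that of Sprr2h at -4.06 (SE 0.83, limma adjusted p = 0.207), followed by Sprr1b at -3.91 (adjusted p = 0.442) and Sprr2d at -3.87 (adjusted p = 0.384). The median of the 10 genes, one main probe set each, was -2.27. That of the 13 member probe sets was -1.0 and that of all probe sets -0.03. The only positive value among the main probe sets was that of Krt17, at 0.88 (95% interval -0.81 to 2.57). A difference between the courses of treated and vehicle skin was therefore not shown for any member by this test.

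The genes around the members were described by lists. Of 25 measured genes of the cornified envelope and its crosslinking, 2 fell between the baricitinib weeks, Lce3a with a log2 difference of -2.35 and Lce3f with -2.94 (limma adjusted p = 0.00604 and 0.0456), and 0 rose. With the mouse as a block Lce3f did not pass (adjusted p = 0.115). Both encode late cornified envelope proteins of the group that skin makes after barrier injury. Lce3a read 6.14, 5.94 and 6.49 at baricitinib week 0 and 3.84, 3.63 and 4.06, all under the array median, at week 12. Lce3a and Lce1h were called lower than with vehicle at week 12, at -3.53 and -2.50. Between the vehicle weeks they were higher by 1.24 and 1.04, which did not pass. Of the 25 genes 3 were below 0 between the vehicle weeks, with a median of 0.51. Lce1h was not called between the baricitinib weeks, at -1.58 (limma adjusted p = 0.165). The envelope genes Lor (loricrin), Ivl (involucrin) and Flg (filaggrin) were not called, at 0.10, 0.42 and -0.98 between the baricitinib weeks.

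Of 21 epidermal alarm and antimicrobial genes, 4 fell and 1 rose between the baricitinib weeks, with a median of -1.63. Gjb2 and Gjb6, the connexins of activated keratinocytes, fell, with log2 differences of -2.89 and -2.70 (limma adjusted p = 0.00159 and 0.00723). Gjb2 read 12.48, 12.10 and 12.79 at baricitinib week 0 and 9.60, 9.17 and 9.92 at week 12, and vehicle week 12 lay at 12.27, 11.88 and 11.70. The protease inhibitor Stfa3 was at -3.19 (adjusted p = 0.0102) and the neutrophil chemokine Cxcl1 at -2.43 (adjusted p = 0.0262), while the alarmin Il33 rose by 1.24 (adjusted p = 0.0495). Cxcl1 and Il33 did not pass with the mouse as a block, at adjusted p of 0.056 and 0.0956. Gjb2, Gjb6 and Stfa3 were also the 3 of the list called lower than with vehicle at week 12. The defensin gene Defb3 was at -3.49 (adjusted p = 0.0772) and Saa3 at -3.67 (adjusted p = 0.26), which did not pass.

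Of 16 measured cytokines and growth factors known to induce these programmes, 2 were called lower between the baricitinib weeks, Ifng at -3.50 and Osm at -1.49, and Osm did not pass with the mouse as a block (adjusted p = 0.0779 in limma). Ifng encodes interferon gamma and Osm oncostatin M, both of which signal through Janus kinases. At week 12 against vehicle 3 were called lower, Ifng at -2.43 and the interleukin-1 family genes Il1f6 at -2.37 and Il1f8 at -1.68. Il1f6, an epithelial cytokine of that family, read 6.12, 4.37 and 6.01 at baricitinib week 12 and 8.22, 7.82 and 7.56 at vehicle week 12. Il17a was under the array median on all 12 arrays. Of 21 genes for receptors and transcription factors of these programmes, 0 were called in either comparison, with medians of 0.06 and 0.09.

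Keratins of other compartments differed in both directions. Of 18 hair shaft and inner root sheath keratins 8 were called lower between the baricitinib weeks, with a median of -4.69, and 2 at week 12. With the mouse as a block 3 of the 8 (Krt35, Krt28 and Krt73) passed. Krt15, a keratin of basal cells and of the follicle bulge, rose by 2.36 (limma adjusted p = 0.0227) and Krt24 by 3.96 (adjusted p = 0.0279), and with the mouse as a block both had an adjusted p of 0.0657. Neither Krt5 nor Krt14, the keratins of basal keratinocytes, was called, at 0.00 and 0.43. Of 11 proliferation genes 5 were called lower between the baricitinib weeks and 1 (Mcm5) at week 12. The block left 2 of the 5 (Bub1 and Mcm5). Of 11 interferon and T cell genes 9 were called lower between the baricitinib weeks and 8 at week 12, and of the 9 Gzma was lost with the block (adjusted p = 0.063). Between the vehicle weeks 11 of the 11 were also below 0, with a median of -1.23 and 0 called. The interaction called 0 of them. The T cell genes Cd8a and Icos, among the 9 called, had means of 9.29 and 8.87 at baricitinib week 0 and 5 and 6.76 at week 12. The T cell genes Cd3e and Cd3g were not called between the baricitinib weeks, with means of 9.56 and 8.48 at week 0 and 9.56 and 9.03 at week 12. Of 16 neutrophil and myeloid markers 1 (Ccr2, a monocyte receptor) was called lower between the baricitinib weeks (adjusted p = 0.0808 with the block) and 0 at week 12. With the 2 least correlated arrays left out these counts between the baricitinib weeks became 5 of 18, 3 of 11, 9 of 11 and 0 of 16.

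**Figure D4:**
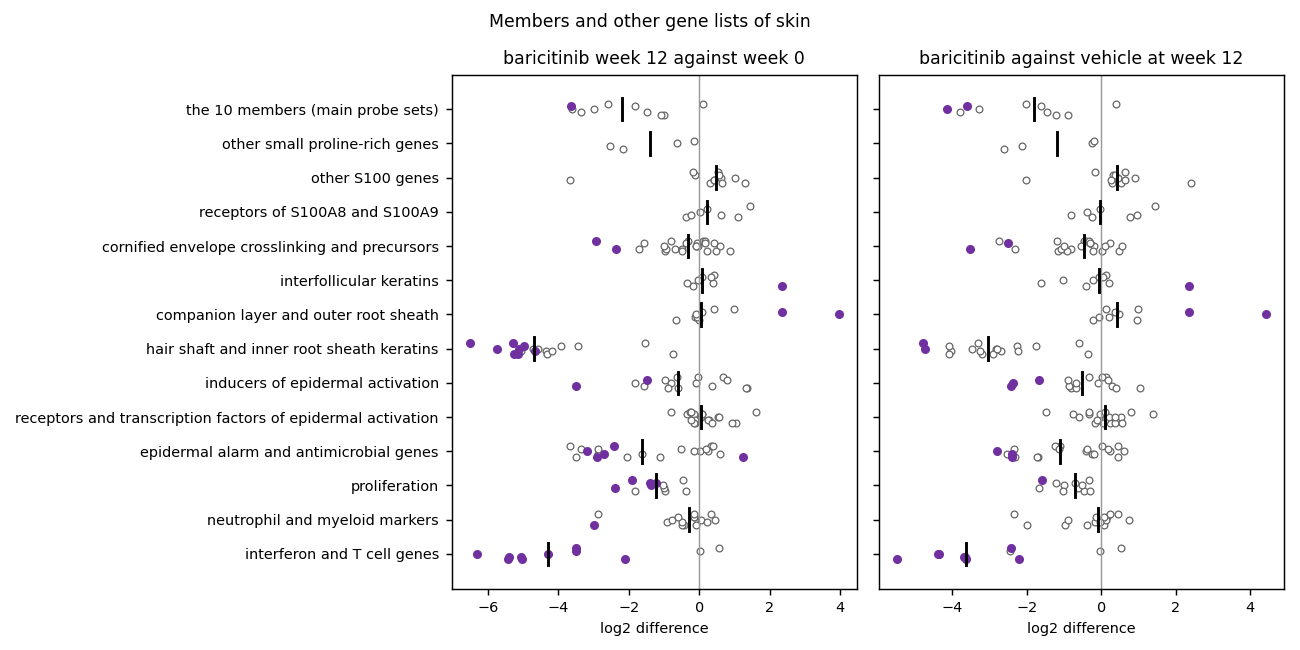
Log2 differences of the 10 members and of 13 other gene lists in the 2 baricitinib comparisons, one point per gene (main probe set), filled where the limma adjusted p was under 0.05, with a bar at the median of each list. The members have a median of -2.20 and -1.81, between the hair keratins at -4.69 and -3.05 and the receptors and transcription factors at 0.06 and 0.09.

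The genes with the most similar pattern were found by the root mean square (RMS) difference of log2 values over the 12 arrays, each gene centred on its own mean. For Sprr2d, the SPRR member that varied the most, they were 2610528A11Rik (0.66), Stfa3 (0.74), Lce3a (0.82), Stfa2l1 (0.89) and Il1f6 (0.91), against a median of 1.81 over all genes. For S100a8 they were Chil1 (0.45), Lbh (0.57), Kcnh1 (0.59), Tedc1 (0.59) and Apobec3 (0.62), against 1.30. For Krt6b they were Stfa3 (0.90), Corin (0.98), Padi4 (0.99), Atp13a4 (1.04) and 2610528A11Rik (1.05), against 1.87. Stfa3 and 2610528A11Rik stood in the lists of both Sprr2d and Krt6b. The 12 points share arrays and mice, so these are descriptions.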

How the data were processed

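Skin RNA of 12 biopsies was amplified and hybridised by the authors to Affymetrix mouse genome arrays. The deposited values are log2 expression made by the authors with RMA (background correction, quantile normalization and median polish; version not given in the sources used here), and depth does not apply to arrays. Arrays removed by the authors for quality were not identified in the sources used here. Groups and mouse numbers came from the labels.

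64 control probe sets were left out. One fit in limma 3.58.1 (R 4.3.3) with a mean for each of the 4 groups covered 45037 probe sets, with Benjamini-Hochberg adjustment over all of them. Probe sets were named from the platform annotation: 34945 had 1 symbol, 932 several and 9160 none, and none with several was named. A gene's main probe set is the one with the highest mean. All 10 members are named, and of the other lists the called genes, defining markers and a few values for scale chosen after they were seen. The members and lists were chosen with earlier results of these data known. The fit was run on simulated data with independent normal noise, which held no pairing by mouse and no differences in array quality.

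The same animal number stands in the labels at both weeks, so the weeks are paired by mouse. Deviations from the group means correlated within mice at -0.36, -0.51 and 0.47 with baricitinib and 0.44, -0.13 and 0.49 with vehicle. The mouse as a block was an alternative, beside a filter on dim probe sets, a variance trend, fits of 2 groups, other normalizations, array weights, one probe set per gene and leaving out each array. Leaving out the 2 least correlated arrays and adding the arrays' mean 3' to 5' difference (Gapdh and actin) to the model were chosen after seeing the data. With 3 arrays a group the number of arrays limits the precision.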

Additional observations from a re-analysis of the deposited data

Results flagged for a closer look

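Every baricitinib mouse was lower and every vehicle mouse higher at week 12 than at week 0 for 3 members, against 1.62% of all probe sets. The change with baricitinib minus the change with vehicle was -3.87 for Sprr2d, -4.06 for Sprr2h and -1.78 for S100a9 on the log2 scale. The limma interaction test of these differences did not pass, with adjusted p of 0.384, 0.207 and 0.636. The S100a9 change was near 0 in mouse 3 of each treatment, at -0.05 and 0.06.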

How the results depend on the processing

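With the mouse as a replicate block, fixed or random, 1 member (Sprr2h) was called between the baricitinib weeks, and the random block called 2 at week 12. The block changed no call of a member probe set, and the calls of other genes that it ended stand beside those results. Between the baricitinib weeks the count of 1 became 2 with the dim filter, 2 with a variance trend, 2 with median centring, 3 with one probe set per gene, 0 in a fit of only the 2 groups and 9 with array weights, which ran from 0.13 to 32.1. It was 2 without the 2 least correlated arrays and 4 with the 3' to 5' index. Leaving out 1 array gave 0 to 4, with 0 without baricitinib week 0 replicate 3 or baricitinib week 12 replicate 2 or 3, 2 without vehicle week 12 replicate 3 and 4 without baricitinib week 12 replicate 1. At week 12 the count of 2 became 0 in a fit of only the 2 groups, 9 with array weights, 4 without the 2 least correlated arrays and 4 with the 3' to 5' index. Leaving out 1 array gave 0 to 4, with 0 without any vehicle week 12 array, 1 without baricitinib week 0 replicate 1 or 3, baricitinib week 12 replicate 2 or 3 or vehicle week 0 replicate 2, and 4 without baricitinib week 12 replicate 1. Array weights gave 1 call (S100a9, higher) between the vehicle weeks, 1 (Krt6a, lower) at week 0 and 8 for the interaction. For the interaction the count was 1 (Sprr2h) without the 2 least correlated arrays and 0 to 2 when 1 array was left out, with 2 without baricitinib week 12 replicate 1. The share of all probe sets called was not counted in these alternative fits, so the member counts have no background beside them. The cause of these moves was not tested.

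Turned directions concerned differences that were not called. When 1 array was left out, Krt17 ran from -0.19 to 0.47 between the baricitinib weeks, from -0.04 to 0.85 at week 12 and from -0.92 to 0.04 at week 0. Between the vehicle weeks Sprr1a ran from -0.49 to 0.03, S100a8 from -0.51 to 0.65 and Krt6b from -0.55 to 0.11. At week 0 Sprr1b ran from -0.09 to 0.31, Sprr2d from -0.55 to 0.09 and Krt6b from -0.30 to 0.36. With the dim probe set Krt17 turned to -0.34 between the baricitinib weeks, -0.17 at week 12, 0.06 at week 0 and -0.23 for the interaction, and with the mean of both probe sets to -0.11 between the baricitinib weeks. With the 3' to 5' index Krt17 was at -0.60 and -0.30 in the baricitinib comparisons and Krt6b at -0.10 at week 0. Array weights turned Krt6b to 0.32 between the vehicle weeks and Sprr2d to 0.22 at week 0, and without the 2 least correlated arrays Sprr2d was at 0.09 and Krt6b at -0.30 at week 0.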
